A study of Mus musculus with 12 samples.

Results

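The amino acid and neurotransmitter solute carriers of mouse colon were taken as every row of the deposited expression table whose gene name starts with Slc1a, Slc3a, Slc6a, Slc7a, Slc36a, Slc38a or Slc43a followed by a digit. The rule found 65 of the 35841 rows, used no measured value, and includes 4 rows named for the opposite strand of a carrier. RNA sequencing of colon tissue gave 12 libraries in 4 groups of 3, called DSS_ImP, DSS, ImP and Ctrl, all labelled wild type. DSS_ImP colon received dextran sulfate sodium (DSS) together with ImP, DSS colon received DSS, ImP colon received ImP, and for Ctrl no treatment is given. DSS damages the lining of the large bowel and is a common way to bring on colitis in mice. What ImP stands for is not given by the labels, which say that it was given for 7 days, and the series title names Angelica dahurica polysaccharides, which no library label mentions. Strain, age, the dose of either agent and whether each library is a separate animal are not given in the sources used here, so the p-values speak for the spread of these samples alone, which may be technical.

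These carriers move amino acids, and compounds made from them, across the plasma membrane and the lysosomal membrane. Some are coupled to sodium, chloride or protons and load the cell, others are exchangers that swap one amino acid for another, and the light chains of the SLC7 family reach the surface only when bound to a heavy chain of the SLC3 family. In the gut they take up what bacteria and digestion release, feed glutamine, cystine and arginine to epithelial and immune cells, and clear serotonin after it is released. In cells short of amino acids several of them are transcribed more, through the transcription factor ATF4 and its DNA element.

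Of the 65 members, 2 had 0 counts in all libraries (Slc7a13 and Slc36a1os), 7 had counts but too few to be tested (Slc38a5, Slc38a8, Slc6a3, Slc6a18, Slc6a21, Slc36a3 and Slc6a19os), and 56 passed the filter on low counts. Libraries held 55419380 to 67406087 estimated counts. Values are counts scaled to the size of the library (CPM) for differences within a gene, and fragments scaled to gene length and library size (FPKM) where levels of different genes are compared. The words rose and fell are kept for members past a false discovery rate (FDR) of 0.05 in the quasi-likelihood test of edgeR, adjusted over all 22279 genes tested, and log2 changes are given ± SE.

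Traces of liver and pancreas divided the libraries otherwise than the groups do, which touches every comparison made here. In DSS 2 and the 3 Ctrl libraries (batch A) the sum of liver transcripts was 119 to 150 CPM, while elsewhere it was at most 3.48 CPM. In DSS 3, DSS 5, ImP 1, ImP 3 and ImP 4 (batch B) the sum of pancreatic transcripts was 13.0 to 16.3 CPM, and DSS_ImP libraries met neither limit (batch C). The batches were found in the data and are not given by the labels. DSS_ImP shares its batch with no other group, so batch and group cannot be told apart where DSS_ImP is compared. The mitochondrial share of counts was 4.67% to 5.14% for DSS_ImP libraries, 6.001% to 6.34% for DSS, 5.40% to 6.01% for ImP and 6.38% to 7.55% for Ctrl.

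The colon expressed a few of these carriers highly and most of them at low levels: 28 averaged at least 1 FPKM over the 12 libraries. Slc6a14, a sodium- and chloride-coupled carrier of neutral and cationic amino acids, had the highest mean, 178 FPKM, with single libraries from 112 FPKM in DSS_ImP 2 to 223 FPKM in Ctrl 4. The creatine carrier Slc6a8 followed at 53.2 FPKM, with libraries from 28.1 to 79.1 FPKM. The glutamine exchanger Slc1a5 averaged 38.6 FPKM and Slc3a1, the heavy chain of the cystine carrier of epithelia, 37.4 FPKM. Their libraries overlapped, at 29.5 to 52.6 FPKM for Slc1a5 and 15.0 to 51.0 FPKM for Slc3a1, so their order was not set beyond the spread. The taurine carrier Slc6a6 averaged 24.1 FPKM and the glutamine and alanine carrier Slc38a2 18.7 FPKM. The heavy chain Slc3a2, also called CD98, averaged 15.8 FPKM, the lysosomal and apical proton-coupled carrier Slc36a1 11.2 FPKM, and Slc7a7, the light chain of a cationic amino acid exporter, 10.5 FPKM.

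**Figure D1:**
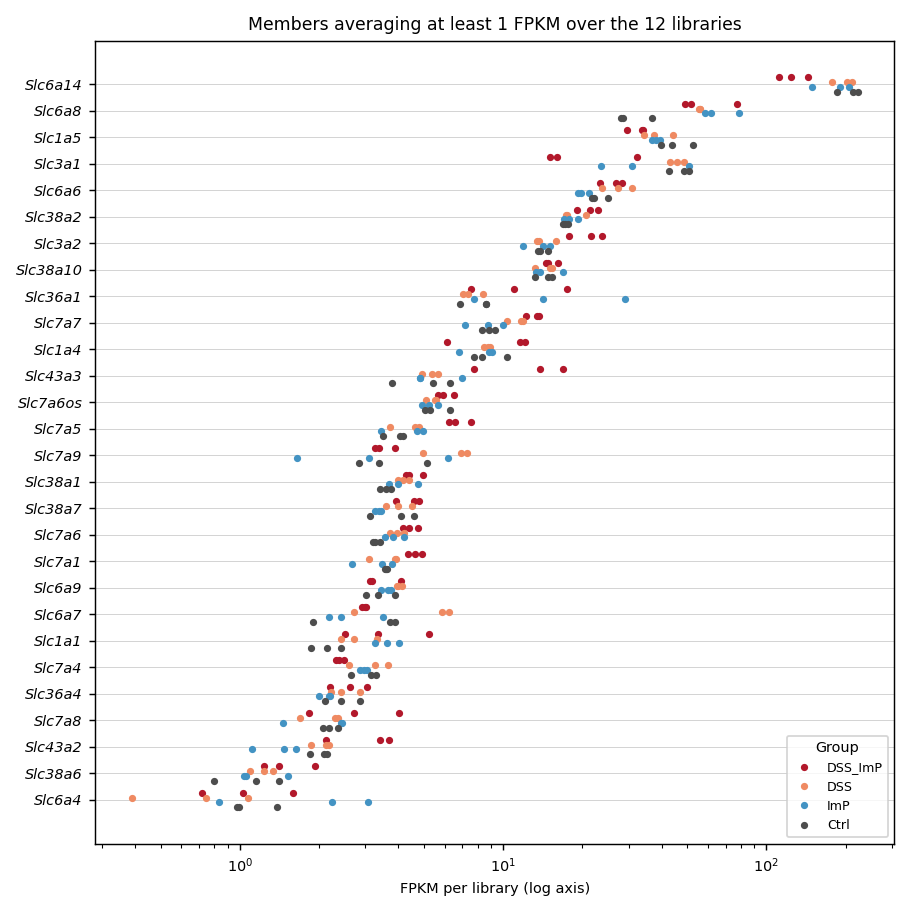
FPKM of each member that averaged at least 1 FPKM, on a log axis, with 1 point per library coloured by group (3 libraries in each of DSS_ImP, DSS, ImP and Ctrl). Slc6a14 lies above every other member in every library, between 112 and 223 FPKM, and its 3 DSS_ImP libraries are its lowest.

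Few carriers changed with either agent alone, and more separated DSS_ImP from DSS and from ImP, as was also so among all genes. In DSS against Ctrl 1 of the 56 tested members rose and 0 fell, where 2.8% of all 22279 genes were called, 1.21% upwards and 1.59% downwards. In ImP against Ctrl 1 member rose and 0 fell, with 1.99% of all genes called, 1.06% upwards and 0.929% downwards. In DSS_ImP against DSS 4 members rose and 3 fell, which is 12.5% of those tested, beside 8.03% of all genes (3.99% upwards and 4.04% downwards). In DSS_ImP against ImP 6 members rose and 1 fell, again 12.5%, beside 9.33% of all genes (4.41% upwards and 4.92% downwards). The last 2 comparisons share the DSS_ImP libraries. DESeq2's size factors and Wald test moved the split to 5 raised and 6 lowered in DSS_ImP against DSS, to 7 and 4 in DSS_ImP against ImP, to 3 and 1 in ImP against Ctrl, and to 2 and 0 in DSS against Ctrl. Of all genes DESeq2 called 14.3% in DSS_ImP against DSS, 14.1% in DSS_ImP against ImP, 5.7% in ImP against Ctrl and 6.54% in DSS against Ctrl. At an unadjusted p under 0.05 edgeR gave 6 higher and 2 lower members in DSS against Ctrl, and 8 and 3 in ImP against Ctrl, where 15.3% and 15.2% of all genes passed that limit in either direction. At the same limit it gave 7 higher and 6 lower in DSS_ImP against DSS, and 12 and 6 in DSS_ImP against ImP. Of all genes 24.1% and 23% passed there. In all, 10 members were called in at least 1 comparison and 46 in none.

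Counts of members whose libraries did not overlap between groups lay near those of all genes. They were 9 of 56 in DSS against Ctrl (22.4% of all genes), 14 in DSS_ImP against DSS (28.6%), 15 in ImP against Ctrl (21.2%) and 17 in DSS_ImP against ImP (28.2%). The median log2 change of the tested members was 0.07 in DSS_ImP against DSS and 0.06 in DSS_ImP against ImP, where all genes had 0.02 and 0.00. It was 0.00 in DSS against Ctrl and -0.04 in ImP against Ctrl, where all genes had -0.02 and -0.01. In each of these comparisons the members' median lay within 0.07 of 0.

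**Figure D2:**
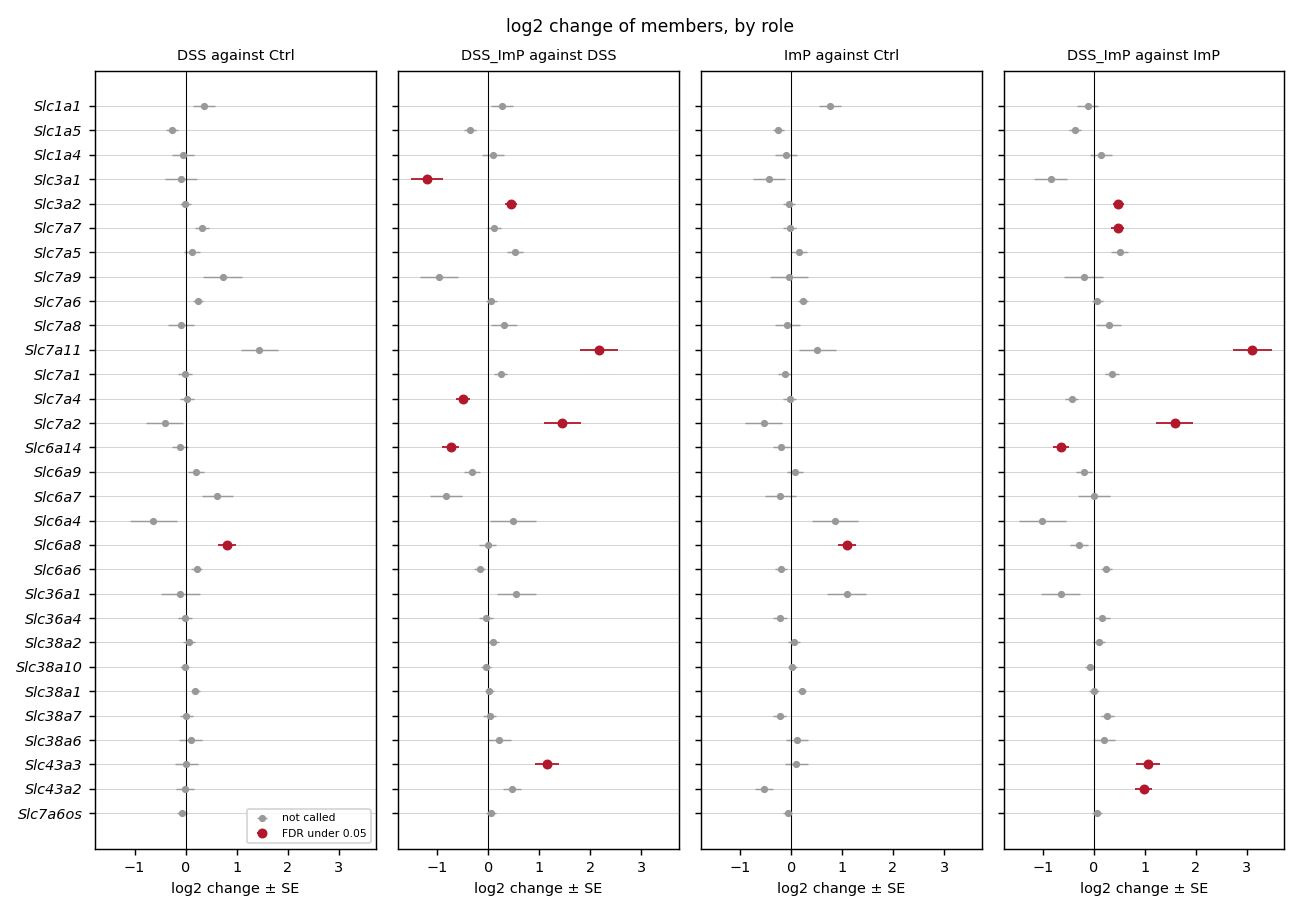
Log2 change ± SE of the 28 members with at least 1 FPKM and of Slc7a2 and Slc7a11, grouped by role, in DSS against Ctrl, DSS_ImP against DSS, ImP against Ctrl and DSS_ImP against ImP (red, FDR under 0.05). Slc7a11 moved furthest among them, by 2.17 against DSS and 3.10 against ImP, and most members lie close to 0.

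Among the light chains, Slc7a11 rose in DSS_ImP against both other treated groups. Slc7a11 (ENSMUSG00000027737, chromosome 3), also called xCT, takes up cystine in exchange for glutamate and supplies cysteine for glutathione. It had 20.8, 44.3 and 16.3 CPM in DSS_ImP, 5.16, 7.16 and 5.76 CPM in DSS, 4.05, 1.98 and 3.44 CPM in ImP, and 1.86, 2.82 and 1.96 CPM in Ctrl. Every DSS_ImP library lay above every library of the other groups, and every DSS library lay above every ImP and Ctrl library. The mean was 27.2 ± 15.0 CPM in DSS_ImP, against 6.03 ± 1.02 CPM in DSS and 3.16 ± 1.06 CPM in ImP (SD, n = 3 each). The log2 change was 2.17 ± 0.37 against DSS (edgeR adjusted p = 0.00717) and 3.10 ± 0.38 against ImP (adjusted p = 0.000715). Both calls remained with each library left out in turn, at adjusted p of up to 0.0400 against DSS and 0.00425 against ImP. In DSS against Ctrl, with a mean of 6.03 CPM in DSS and 2.21 ± 0.527 CPM in Ctrl, the log2 change of 1.45 ± 0.37 missed the threshold (adjusted p = 0.0604). It passed with DESeq2 (adjusted p = 0.00232), with only the groups compared (0.0163), with a filter of 1 CPM in 6 libraries (0.0480), and in edgeR without DSS_ImP 3 (0.0156) or DSS_ImP 4 (0.0401).

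The stretches before the starts of the called light chains Slc7a11 and Slc7a7 are shown because each holds a pair of matches to the element through which amino acid shortage acts, for Slc7a7 at 1 of its several listed starts. Those of the heavy chain Slc3a2, and of Slc6a14, which moved the opposite way to Slc7a11, are shown beside them. The sequences are RefSeq's for GRCm38.p6 and run from 250 bases before the start to 50 bases after it, on the gene's strand, with matches in capitals.
Slc7a11, chr3:50443564-50443863, minus strand: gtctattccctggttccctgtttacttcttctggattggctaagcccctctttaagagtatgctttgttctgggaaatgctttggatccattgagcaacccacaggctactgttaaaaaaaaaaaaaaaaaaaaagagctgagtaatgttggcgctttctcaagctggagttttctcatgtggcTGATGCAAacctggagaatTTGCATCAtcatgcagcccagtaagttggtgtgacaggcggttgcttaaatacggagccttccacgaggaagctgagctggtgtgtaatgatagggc
Slc7a7, chr14:54417895-54418194, minus strand: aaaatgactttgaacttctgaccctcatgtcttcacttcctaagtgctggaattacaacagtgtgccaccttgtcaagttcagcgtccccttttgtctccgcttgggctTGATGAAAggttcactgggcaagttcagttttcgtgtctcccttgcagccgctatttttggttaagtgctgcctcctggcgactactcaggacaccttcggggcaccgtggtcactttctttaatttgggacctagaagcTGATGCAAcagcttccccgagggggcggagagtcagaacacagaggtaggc
Slc3a2, chr19:8713848-8714147, minus strand: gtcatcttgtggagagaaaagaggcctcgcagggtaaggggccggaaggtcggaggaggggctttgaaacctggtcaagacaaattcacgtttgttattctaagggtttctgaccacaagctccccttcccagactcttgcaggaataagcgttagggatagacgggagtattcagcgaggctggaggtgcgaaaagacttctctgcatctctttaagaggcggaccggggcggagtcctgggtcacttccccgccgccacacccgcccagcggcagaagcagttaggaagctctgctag
Slc6a14, chrX:21714650-21714949, plus strand: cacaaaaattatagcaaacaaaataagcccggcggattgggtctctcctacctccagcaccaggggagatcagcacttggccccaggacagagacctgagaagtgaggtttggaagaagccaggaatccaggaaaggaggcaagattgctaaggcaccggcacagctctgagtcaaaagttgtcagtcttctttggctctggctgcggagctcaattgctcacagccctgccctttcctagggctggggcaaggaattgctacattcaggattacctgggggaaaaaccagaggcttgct
The motif searched on both strands was TTNCATCA, the C/EBP-ATF response element, and the matches in Slc7a11 are TGATGCAA from 66 bases and TTGCATCA from 47 bases before the start. In Slc7a7 they are TGATGAAA from 141 bases and TGATGCAA from 1 base before the start. Of 32851 promoters of the same length 3.97% held a match, and 23 promoters (0.07%) held at least 2. Of the members, 48 had an entry, some with several starts, for 69 entries in all, and 5 entries of 4 members held it: Slc7a11, Slc7a7, Slc1a4 and Slc6a21. The Slc7a7 entries among them have nearby starts and hold the same TGATGCAA. Of the 10 called members 6 had an entry, while Slc6a8, Slc7a4, Slc43a3 and Slc7a2 had none. Among those 6, the raised Slc3a2 and Slc43a2 and the lowered Slc3a1 and Slc6a14 held no match to TTNCATCA. The antioxidant response element TGACNNNGC was in 11 entries of 9 members (12.4% of all promoters) and the E-box CACGTG in 8 entries of 8 members (7.15%). Neither was in the shown stretches of Slc7a11, Slc7a7, Slc3a2 or Slc6a14. A match is a run of letters, and no binding was measured here.

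**Figure D3:**
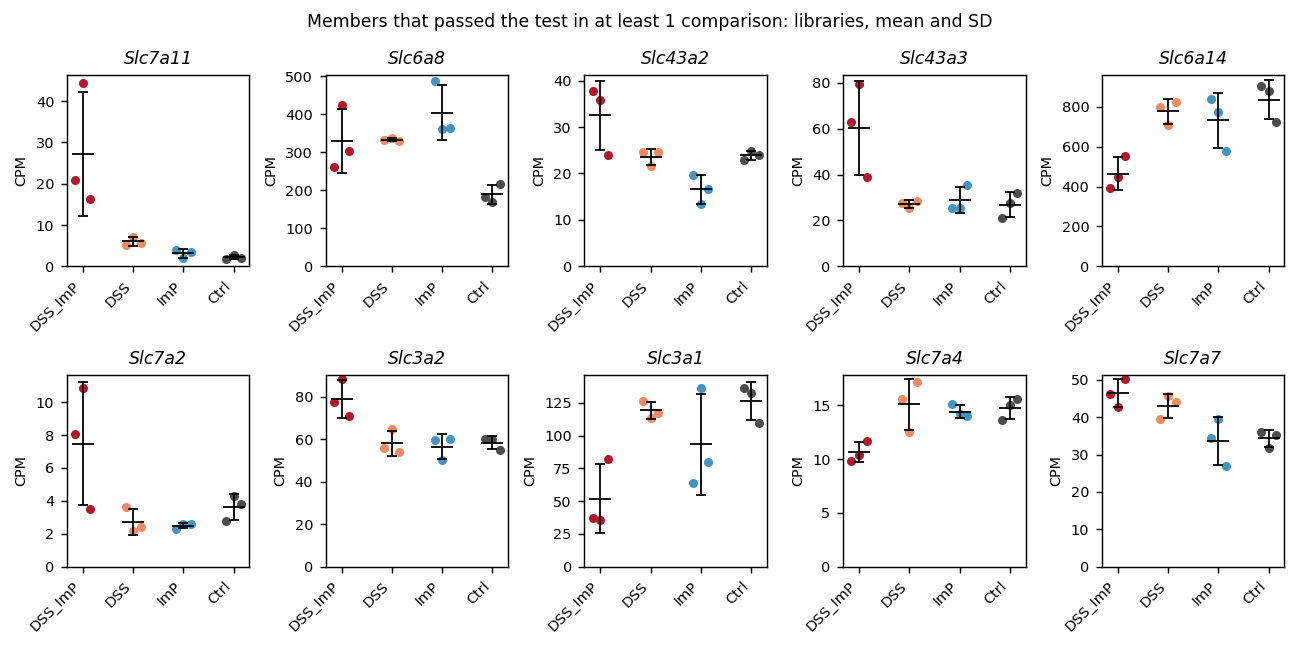
CPM of the 10 members called in at least 1 comparison, with 1 point per library and the mean and SD (n = 3) for DSS_ImP, DSS, ImP and Ctrl on axes from 0. Slc7a11 averages 27.2 CPM in DSS_ImP and 2.21 CPM in Ctrl, and DSS_ImP 4 lies nearer to the other groups than the other DSS_ImP libraries in Slc7a2, Slc43a2 and Slc43a3.

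The 2 heavy chains moved in opposite directions in DSS_ImP. Slc3a2 (ENSMUSG00000010095), the partner of Slc7a11, Slc7a5, Slc7a6, Slc7a7 and Slc7a8 at the plasma membrane, had 77.6, 88.3 and 70.8 CPM in DSS_ImP, 55.7, 64.8 and 53.8 CPM in DSS, 59.4, 50.0 and 60.2 CPM in ImP, and 60.2, 60.0 and 54.7 CPM in Ctrl. The DSS_ImP libraries lay above the other 9 libraries, whose groups overlapped. Its log2 change was 0.44 ± 0.11 against DSS (edgeR adjusted p = 0.0335) and 0.48 ± 0.11 against ImP (adjusted p = 0.0191). The first call was lost without DSS_ImP 2, DSS_ImP 3, DSS 2 or DSS 5 (adjusted p up to 0.136, log2 change 0.36 to 0.46), with no filter (0.0509) and with only the groups compared (0.0749). The second was lost without DSS_ImP 3 or ImP 3 (adjusted p up to 0.0792, log2 change 0.40 in both) and with only the groups compared (0.0623).

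Slc3a1 (ENSMUSG00000024131), or rBAT, pairs with Slc7a9 in the brush border carrier that takes up cystine and cationic amino acids. It had 37.1, 35.9 and 82.1 CPM in DSS_ImP, 126.5, 113.6 and 117.6 CPM in DSS, 63.6, 136.5 and 79.6 CPM in ImP, and 136.2, 132.8 and 109.9 CPM in Ctrl. It fell in DSS_ImP against DSS, with no overlap (log2 change -1.21 ± 0.32, edgeR adjusted p = 0.0387), and was spread widely within ImP. The call was lost without DSS_ImP 2, DSS_ImP 3, any DSS library or any Ctrl library (adjusted p up to 0.163, log2 change -1.24 to -0.998), with no filter (0.0606) and with only the groups compared (0.0695). In DSS_ImP against ImP it was not called (-0.85 ± 0.32, adjusted p = 0.124), but passed with DESeq2 (0.0334) and in edgeR without DSS_ImP 4 (log2 change -1.35, adjusted p = 0.00676). Its partner Slc7a9 had 8.96, 10.96 and 10.1 CPM in DSS_ImP and 21.3, 15.4 and 22.2 CPM in DSS, with no overlap, and did not pass (log2 change -0.97 ± 0.38, adjusted p = 0.142), although it did with DESeq2 (0.0477).

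Of the 8 light chains tested, 1 was called in DSS_ImP against DSS and 2 in DSS_ImP against ImP, beside 8.03% and 9.33% of all genes, and 0 in the other pairs. In those, 3 (DSS against Ctrl) and 1 (ImP against Ctrl) had an unadjusted edgeR p under 0.05, beside 15.3% and 15.2% of all genes. DESeq2 called 1 and 0 there, beside 6.54% and 5.7% of all genes. The light chain called against ImP besides Slc7a11 was Slc7a7 (ENSMUSG00000000958), which exports cationic amino acids in exchange for neutral ones and is also found in macrophages. It had 46.4, 42.8 and 50.2 CPM in DSS_ImP, 39.5, 45.8 and 44.0 CPM in DSS, 34.5, 39.5 and 26.9 CPM in ImP, and 36.1, 31.7 and 35.3 CPM in Ctrl. The DSS_ImP and DSS libraries overlapped each other and lay above the Ctrl libraries. Its log2 change against ImP was 0.47 ± 0.13 (edgeR adjusted p = 0.0455). That call was lost with any library but ImP 3 left out (adjusted p up to 0.146, log2 change 0.32 to 0.52), with no filter (0.0791) and with only the groups compared (0.121). Slc7a5, or LAT1, the exchanger for large neutral amino acids, had 28.6, 24.3 and 27.4 CPM in DSS_ImP, above all of the 20.5, 19.8 and 15.6 CPM in DSS and the 21.8, 15.2 and 19.8 CPM in ImP. It did not pass in either comparison (log2 changes 0.52 ± 0.16 and 0.50 ± 0.16, adjusted p = 0.0630 and 0.0705), and passed in both with DESeq2 (0.0201 and 0.0284).

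The 5 cationic amino acid carriers of the SLC7 family split. Slc7a2 (ENSMUSG00000031596), or CAT2, which brings arginine into macrophages and other cells, had 8.08, 10.9 and 3.48 CPM in DSS_ImP, 3.63, 2.17 and 2.41 CPM in DSS, 2.31, 2.60 and 2.58 CPM in ImP, and 2.75, 4.31 and 3.82 CPM in Ctrl. DSS_ImP 2 and DSS_ImP 3 were high, and DSS_ImP 4 lay within the range of DSS. Its log2 change was 1.45 ± 0.36 against DSS (edgeR adjusted p = 0.0320) and 1.58 ± 0.36 against ImP (adjusted p = 0.0183). The first call was lost without DSS_ImP 2, DSS_ImP 3, DSS 3 or DSS 5 (adjusted p up to 0.156, log2 change 1.08 to 1.39), with no filter (0.0509) and with only the groups compared (0.0916). The second was lost without DSS_ImP 2, DSS_ImP 3 or any ImP library (adjusted p up to 0.0918, log2 change 1.22 to 1.61) and with only the groups compared (0.0632).

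Slc7a4 (ENSMUSG00000022756), a relative of these carriers whose substrate is not settled, had 9.83, 10.4 and 11.7 CPM in DSS_ImP, 15.6, 12.5 and 17.2 CPM in DSS, 15.1, 14.2 and 14.0 CPM in ImP, and 13.6, 15.0 and 15.6 CPM in Ctrl. The DSS_ImP libraries lay below all the others. It fell against DSS (log2 change -0.51 ± 0.14, edgeR adjusted p = 0.0406) and missed the threshold against ImP (-0.44 ± 0.14, adjusted p = 0.0642). The call against DSS was lost in 9 of the 12 fits with 1 library left out, those without DSS_ImP 2, DSS_ImP 3, DSS 2, DSS 5, ImP 1, ImP 3, ImP 4, Ctrl 4 or Ctrl 5 (adjusted p up to 0.167, log2 change -0.52 to -0.40). It was also lost with no filter (0.0580), with only the groups compared (0.118) and in limma on log2(FPKM + 1) (0.0798). Against ImP it passed with DESeq2 (0.0216) and in edgeR without DSS 3 (0.0434). Slc7a1, or CAT1, the cationic carrier with the highest level in this role (3.79 FPKM), was not called, with 57.7, 52.7 and 59.8 CPM in DSS_ImP and 51.6, 52.5 and 40.2 CPM in DSS.

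Slc6a14 (ENSMUSG00000031089), the highest of all these carriers, fell in DSS_ImP. It had 390.8, 449.2 and 554.5 CPM in DSS_ImP, 800.0, 707.4 and 823.2 CPM in DSS, 839.9, 773.7 and 579.3 CPM in ImP, and 904.2, 878.8 and 722.8 CPM in Ctrl. The DSS_ImP libraries were the lowest of the 12, with DSS_ImP 4 close to ImP 4. Per length the mean was 127 ± 16.3 FPKM in DSS_ImP, against 198 ± 17.7 FPKM in DSS and 182 ± 29.5 FPKM in ImP (SD, n = 3 each). Its log2 change was -0.74 ± 0.16 against DSS (edgeR adjusted p = 0.0183) and -0.65 ± 0.16 against ImP (adjusted p = 0.0246). The first call was lost without DSS_ImP 2, DSS_ImP 3, DSS 2 or DSS 5 (adjusted p up to 0.0797, log2 change -0.72 to -0.63). The second was lost without DSS_ImP 2, DSS_ImP 3, ImP 1 or ImP 3 (adjusted p up to 0.0966, log2 change -0.62 to -0.54) and with only the groups compared (0.0879). In DSS against Ctrl the change was -0.10 ± 0.16, and in ImP against Ctrl -0.19 ± 0.16, neither called. The other epithelial carriers of neutral amino acids tested, Slc6a15, Slc6a19, Slc6a20a and Slc6a20b, averaged under 1 FPKM and were not called. Reads of Slc6a20a and Slc6a20b, which are close copies, may be split between them by the counting.

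Slc6a8 (ENSMUSG00000019558), which takes up creatine for the energy buffer of epithelium and muscle, was the only member called against Ctrl. It had 261.4, 424.8 and 303.1 CPM in DSS_ImP, 333.7, 337.2 and 329.7 CPM in DSS, 488.5, 361.6 and 363.8 CPM in ImP, and 183.0, 168.1 and 217.4 CPM in Ctrl. All treated libraries lay above the Ctrl libraries. The log2 change was 0.82 ± 0.18 in DSS against Ctrl (edgeR adjusted p = 0.0288) and 1.09 ± 0.18 in ImP against Ctrl (adjusted p = 0.0141), comparisons that share the Ctrl libraries. The first call was lost without DSS 2, DSS 3, DSS 5, Ctrl 1 or Ctrl 4 (adjusted p up to 0.123, log2 change 0.74 to 0.82), and the second without Ctrl 1 or Ctrl 4 (up to 0.0692, log2 change 1.02 to 1.07). With batch as a term the changes were 0.84 (adjusted p = 0.0984) and 1.12 (0.242). Within batch A, with the single library DSS 2 against the 3 Ctrl libraries, the change was also 0.84 (adjusted p = 0.0945). DSS_ImP did not differ by the test from DSS (-0.02 ± 0.17, adjusted p = 0.971) or from ImP (-0.30 ± 0.17, adjusted p = 0.359). Slc6a6, the taurine carrier of the same role, was not called in any comparison, at 235 ± 25.0 CPM in DSS_ImP, 265 ± 33.7 CPM in DSS, 198 ± 11.7 CPM in ImP and 228 ± 13.1 CPM in Ctrl.

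Within the SLC43 family 1 of the 3 members rose in DSS_ImP against DSS and 2 in DSS_ImP against ImP, where 3.99% and 4.41% of all genes rose. Slc43a3 (ENSMUSG00000027074), which carries purine nucleobases rather than amino acids, had 62.7, 79.2 and 38.8 CPM in DSS_ImP, 27.6, 25.5 and 28.5 CPM in DSS, 25.6, 25.6 and 35.3 CPM in ImP, and 20.9, 27.8 and 32.0 CPM in Ctrl. The DSS_ImP libraries lay above all others, DSS_ImP 4 by little. Its log2 change was 1.15 ± 0.23 against DSS (edgeR adjusted p = 0.0142) and 1.06 ± 0.23 against ImP (adjusted p = 0.0143). The first call was lost without DSS_ImP 3 or DSS 5 (adjusted p up to 0.0662, log2 change 0.90 to 1.18). The second was lost without DSS_ImP 3, ImP 1 or ImP 3 (up to 0.0672, log2 change 0.82 to 0.98) and with only the groups compared (0.0618).

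Slc43a2 (ENSMUSG00000038178), or LAT4, which lets branched-chain and other large neutral amino acids leave epithelial cells, had 37.7, 35.9 and 23.9 CPM in DSS_ImP, 24.5, 21.7 and 24.7 CPM in DSS, 19.6, 13.3 and 16.7 CPM in ImP, and 23.0, 24.8 and 23.9 CPM in Ctrl. The ImP libraries lay below all the others. It rose in DSS_ImP against ImP (log2 change 0.97 ± 0.17, edgeR adjusted p = 0.00500), a call that remained with each library left out in turn (adjusted p up to 0.0234). Against DSS it was not called (0.46 ± 0.17, adjusted p = 0.127), but passed without DSS_ImP 4 (log2 change 0.64, adjusted p = 0.0173). In ImP against Ctrl it was not called either (-0.53 ± 0.17, adjusted p = 0.154).

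No small neutral amino acid exchanger, glutamate carrier, proton-coupled carrier, neurotransmitter carrier or member of the glutamine and alanine carriers passed edgeR's test in any comparison. DESeq2 called Slc1a5 in DSS_ImP against DSS (log2 change -0.36, adjusted p = 0.0313) and against ImP (-0.38, 0.0240), and Slc6a7, a proline carrier, in DSS_ImP against DSS (-0.85, 0.0432). In ImP against Ctrl it called Slc1a1 (0.77, 0.0166), Slc6a17 (1.19, 0.00658) and Slc38a4 (-2.57, 0.00206). Slc1a5, or ASCT2, the main glutamine exchanger here, had 144.7, 129.7 and 157.8 CPM in DSS_ImP, 211.4, 165.1 and 176.0 CPM in DSS, 182.5, 189.2 and 186.9 CPM in ImP, and 204.3, 209.8 and 249.8 CPM in Ctrl. The DSS_ImP libraries lay below all the others, and the changes missed the threshold (-0.35 ± 0.12 against DSS, adjusted p = 0.0819, and -0.37 ± 0.12 against ImP, adjusted p = 0.0679). Of the 9 glutamine and alanine carriers tested, Slc38a2, or SNAT2, which is induced when amino acids run short, was highest and kept to 199 ± 27.7 CPM in DSS_ImP, 188 ± 20.7 CPM in DSS, 186 ± 15.6 CPM in ImP and 179 ± 4.34 CPM in Ctrl. Slc38a9, the lysosomal arginine sensor upstream of mTORC1, had 14.4, 13.6 and 16.5 CPM in DSS_ImP, 17.0, 14.0 and 19.6 CPM in DSS, 15.4, 15.5 and 17.6 CPM in ImP, and 18.4, 20.7 and 24.3 CPM in Ctrl. Its ImP libraries lay below its Ctrl libraries, without passing (-0.39 ± 0.15, adjusted p = 0.227). Slc7a6os, the highest of the rows named for an opposite strand (5.56 FPKM), was not called, and since strand use in the counting is not given, its reads and those of Slc7a6 cannot be told apart.

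The glutamate carrier with the highest level, Slc1a1, which also takes up aspartate and cysteine, had 28.2, 45.4 and 23.2 CPM in DSS_ImP, 31.5, 23.2 and 25.4 CPM in DSS, 39.5, 35.6 and 30.6 CPM in ImP, and 19.1, 20.4 and 22.8 CPM in Ctrl. All treated libraries lay above the Ctrl libraries, and the change in ImP against Ctrl missed the threshold (0.76 ± 0.21, adjusted p = 0.0969). Slc1a7, a glutamate carrier known from the retina, had 136 counts over the DSS_ImP libraries, 17 over DSS, 18 over ImP and 0 over Ctrl, where 12 counts over a group were taken as the limit that a count of 0 allows. It was not called in any comparison (edgeR adjusted p = 0.140 to 0.151 in the pairs of groups). In the interaction its unadjusted edgeR p was not under 0.05. Slc1a7 is one of 20 members that averaged under 0.1 FPKM.

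Of the 10 neurotransmitter carriers tested, Slc6a9, a glycine carrier, was highest at 3.63 FPKM and was not called, with 16.7, 16.8 and 23.6 CPM in DSS_ImP and 23.4, 24.7 and 23.1 CPM in DSS. The serotonin carrier Slc6a4, which ends serotonin signalling in the mucosa, had 4.76, 7.64 and 3.68 CPM in DSS_ImP, 5.63, 2.04 and 3.83 CPM in DSS, 16.5, 4.49 and 11.5 CPM in ImP, and 5.50, 5.16 and 7.18 CPM in Ctrl. ImP 1 and ImP 4 were high and ImP 3 lay among the other groups, so the change in ImP against Ctrl did not pass (0.86 ± 0.45, adjusted p = 0.411). Slc6a17, a carrier of neutral amino acids into synaptic vesicles, averaged 10.7 ± 4.83 CPM in ImP and 4.71 ± 0.734 CPM in Ctrl, again without passing (1.19 ± 0.31, adjusted p = 0.0794). The dopamine carrier Slc6a3 had counts in Ctrl 5 alone.

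Several members varied between libraries together with genes of other tissues or of another stretch of colon, some of which also differed between groups. These genes were chosen after their values were seen, and their part in the carriers' values was not tested. Slc38a3 and Slc38a4, glutamine and alanine carriers known from liver, followed the liver transcripts. Slc38a3 had 1.46 CPM in DSS 2 and 1.16, 1.64 and 1.45 CPM in Ctrl, and at most 0.402 CPM elsewhere. Slc38a4 had 2.60 CPM in DSS 2 and 1.82, 2.73 and 2.03 CPM in Ctrl, and no more than 1.10 CPM elsewhere. Albumin (Alb) was at 37.0 CPM in DSS 2 and 43.5 to 46.2 CPM in the Ctrl libraries, and at no more than 1.10 CPM elsewhere. The glutamate carrier Slc1a2, also known from liver, was at 1.28 CPM in DSS 2 and 1.11 to 1.40 CPM in Ctrl, and at 1.07 CPM or less in the other libraries.

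Slc7a10 and Slc36a2 are also known as surface markers of mouse adipocytes and are set here beside the adipocyte hormone Adipoq. Slc7a10 had 1.88 CPM in DSS_ImP 4, 2.70 CPM in DSS 5, 1.72 CPM in ImP 3 and 3.34 CPM in Ctrl 5, and no more than 0.999 CPM elsewhere. Those are the 4 libraries highest in Adipoq, which was at 2.01, 0.3003 and 18.2 CPM in DSS_ImP, 0.831, 11.5 and 32.8 CPM in DSS, 0.806, 36.8 and 15.1 CPM in ImP, and 12.8, 0.473 and 35.9 CPM in Ctrl. Slc36a2 had 3.72, 2.53 and 3.68 CPM in DSS_ImP, 0.668, 3.33 and 5.76 CPM in DSS, 0.597, 7.59 and 2.38 CPM in ImP, and 0.696, 0.254 and 4.98 CPM in Ctrl. It was highest in ImP 3, DSS 5 and Ctrl 5, but DSS_ImP 2 and DSS_ImP 3 held more of it than Ctrl 1 and less Adipoq.

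Slc36a1, Slc6a4 and Slc3a1 are set beside Hoxb13, a homeobox gene expressed towards the distal end of the gut. Hoxb13 was at 72.9, 112 and 25.3 CPM in DSS_ImP, 8.11, 21.2 and 12.4 CPM in DSS, 126, 32.7 and 92.2 CPM in ImP, and 0.839, 0.509 and 17.0 CPM in Ctrl. Each DSS_ImP and ImP library held more of it (25.3 CPM or more) than each DSS and Ctrl library (21.2 CPM or less). The level of Hoxb13 and the group therefore cannot be told apart in ImP against Ctrl or in DSS_ImP against DSS. Slc36a1 had 63.3, 103.5 and 47.6 CPM in DSS_ImP, 193.8, 51.7 and 90.4 CPM in ImP, and 45.6 to 55.6 CPM in the DSS and Ctrl libraries. It was high in ImP 1, DSS_ImP 3, ImP 4 and DSS_ImP 2, the libraries highest in Hoxb13, and was not called in ImP against Ctrl (1.09 ± 0.39, adjusted p = 0.188). Slc6a4 was highest in ImP 1, ImP 4 and DSS_ImP 3 (16.5, 11.5 and 7.64 CPM). However, Ctrl 1, with less Hoxb13, held more Slc6a4 than DSS_ImP 2 (5.50 and 4.76 CPM). Slc3a1, which fell in DSS_ImP against DSS, was at 35.9 to 82.1 CPM in DSS_ImP 2, DSS_ImP 3, DSS_ImP 4, ImP 1 and ImP 4 and at 109.9 to 136.5 CPM in the other libraries, ImP 3 with more Hoxb13 than DSS_ImP 4 among them.

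**Figure D4:**
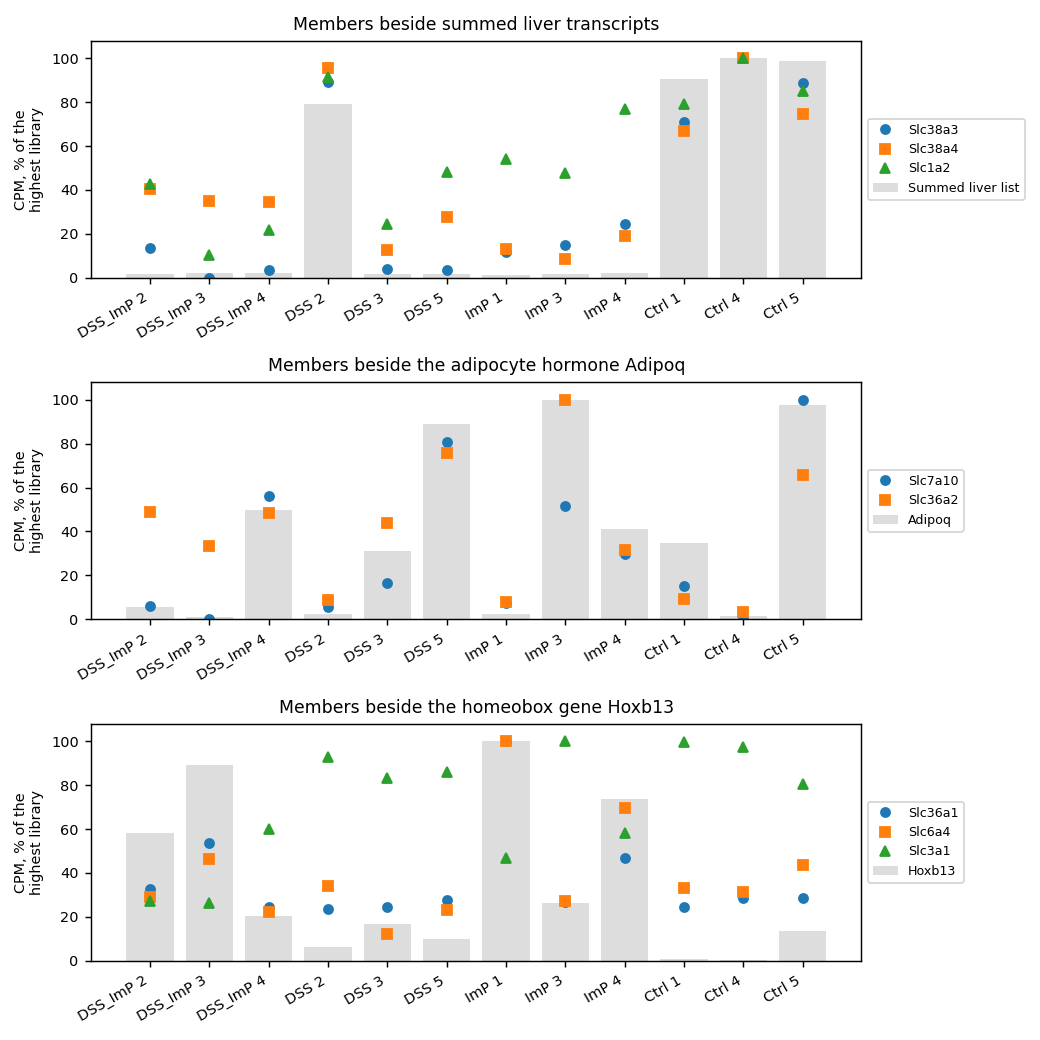
CPM of members as percent of their highest library (points), beside the summed liver transcripts, Adipoq and Hoxb13 on the same scale (grey bars), in the 12 libraries from DSS_ImP 2 to Ctrl 5. Slc38a3 and Slc38a4 are highest in DSS 2 and the 3 Ctrl libraries, Slc7a10 and Slc36a2 in libraries high in Adipoq, and Slc36a1 and Slc6a4 in ImP 1, the library highest in Hoxb13.

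Markers of other cell types moved in DSS_ImP against DSS and against ImP, as did the called carriers other than Slc6a8, and some moved against Ctrl. In bulk tissue fewer cells of a type and less RNA per cell cannot be told apart. Of all genes 8.03% were called against DSS and 9.33% against ImP. Neutrophil markers rose for 7 of 9 against DSS and 7 of 9 against ImP, and summed to 426 to 1429 CPM in DSS_ImP, 55.9 to 135 CPM in DSS, 69.9 to 255 CPM in ImP and 4.84 to 11.5 CPM in Ctrl. Monocyte and macrophage markers rose for 7 of 10 against DSS and 5 of 10 against ImP, at 609 to 1043 CPM in DSS_ImP, 289 to 541 CPM in DSS, 438 to 525 CPM in ImP and 393 to 423 CPM in Ctrl. Fibroblast markers (4 of 6) and endothelial markers (4 of 6) rose in both comparisons. Fibroblast markers summed to 1837 to 3105 CPM in DSS_ImP, 564 to 1316 CPM in DSS, 756 to 904 CPM in ImP and 648 to 815 CPM in Ctrl, and endothelial markers to 195 to 313 CPM in DSS_ImP, 157 to 170.4 CPM in DSS, 129 to 159 CPM in ImP and 112 to 161 CPM in Ctrl. Markers of absorptive colonocytes fell for 5 of 12 against DSS and 7 of 12 against ImP, and summed to 7830.5 to 12686 CPM in DSS_ImP, 15497 to 16958 CPM in DSS, 15478 to 19153 CPM in ImP and 20215 to 25734 CPM in Ctrl. All 12 colonocyte markers were detected, as the label colon asks. Against DSS and against ImP, markers fell for 1 and 3 of 8 of goblet cells and 2 and 3 of 8 of T and NK cells. Enteroendocrine markers fell for 0 and 2 of 8 by edgeR, and DESeq2 called 4 and 3 of them lower (14.3% and 14.1% of all genes called). Enteric neuron and glia markers rose for 3 and 4 of 13, and crypt stem and cycling markers for 1 and 2 of 8. Of smooth muscle and of B and plasma cell markers edgeR called 0 in these comparisons, while DESeq2 called 3 of 7 B and plasma cell markers, upwards, against DSS. In DSS and in ImP against Ctrl, where 2.8% and 1.99% of all genes were called, neutrophil markers rose for 4 and 1 of 9. Enteroendocrine markers fell there for 4 and 3 of 8. Absorptive colonocyte markers rose there for 1 and 2 of 12 and fell for 3 and 2. The part of these shifts in the rise of Slc7a11, Slc7a2, Slc3a2, Slc43a2, Slc43a3, Slc7a7 and Slc6a8 and in the fall of Slc6a14, Slc3a1 and Slc7a4 was not tested. DSS_ImP 3, the library highest in Slc7a11, Slc7a2, Slc3a2 and Slc43a3, was also highest in the neutrophil sum. It was highest too in the sums of monocyte and macrophage, fibroblast, endothelial, and enteric neuron and glia markers. Slc43a2 was highest in DSS_ImP 2 and Slc7a7 in DSS_ImP 4.

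Genes that use what the carriers move were taken from 7 lists. Beside the counts of each list, edgeR called 8.03% of all genes in DSS_ImP against DSS and 9.33% in DSS_ImP against ImP. It called 2.8% in DSS against Ctrl and 1.99% in ImP against Ctrl. Of 29 ATF4 target genes, 3 rose and 1 fell in DSS_ImP against DSS, and 3 rose and 2 fell in DSS_ImP against ImP, with list medians of 0.05 and 0.10 on the log2 scale beside 0.02 and 0.00 for all genes. Ddit4, a stress-induced inhibitor of mTORC1, averaged 98.1 ± 13.7 CPM in DSS_ImP, 71.4 ± 3.66 CPM in DSS and 45.6 ± 6.04 CPM in ImP (log2 changes 0.46 ± 0.12, adjusted p = 0.0413, and 1.10 ± 0.12, adjusted p = 0.000445). Cebpb, a transcription factor also high in myeloid cells, averaged 28.9 ± 22.7 CPM in DSS_ImP and 4.77 ± 3.56 CPM in DSS (2.60 ± 0.72, adjusted p = 0.0460), and Trib3, a stress-induced pseudokinase, averaged 1.68 ± 0.525 CPM in DSS_ImP and 0.696 ± 0.181 CPM in DSS (1.27 ± 0.35, adjusted p = 0.0462). Cth, which makes cysteine from cystathionine, fell to 36.7 ± 8.25 CPM in DSS_ImP, against 58.5 ± 6.63 CPM in DSS (-0.67 ± 0.16, adjusted p = 0.0282). Against ImP, Cth also fell (-1.07 ± 0.16), as did Atf3, a stress-induced transcription factor (-1.49 ± 0.37), and Psat1, an enzyme of serine synthesis, rose (0.85 ± 0.22). In DSS against Ctrl Ddit4 rose (0.54 ± 0.12) and Cth fell (-0.72 ± 0.16). In ImP against Ctrl edgeR called 0 of the 29, with 5 at an unadjusted p under 0.05 (15.2% of all genes), and DESeq2 called 3 (5.7% of all genes).

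Of 14 genes of glutathione and cystine handling, 1 rose in DSS_ImP against DSS and against ImP. It was Hmox1, the heme-degrading enzyme, with 49.1 ± 18.3 CPM in DSS_ImP, 17.1 ± 1.53 CPM in DSS and 9.78 ± 0.902 CPM in ImP (log2 changes 1.52 ± 0.24, adjusted p = 0.00608, and 2.33 ± 0.25, adjusted p = 0.000409). The list medians were -0.22 and 0.04, beside 0.02 and 0.00 for all genes, and the other 13 genes did not pass in either comparison. In ImP against Ctrl 3 of the 14 fell: Gclc (-0.66 ± 0.13) and Gclm (-0.54 ± 0.12), the subunits of the first enzyme of glutathione synthesis, and their activator Nfe2l2 (-0.49 ± 0.10). Nfe2l2 fell in DSS against Ctrl too (-0.43 ± 0.10), at 234 ± 10.7 CPM in DSS and 314 ± 34.0 CPM in Ctrl.

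Of 14 genes of arginine and polyamine metabolism, 2 rose and 1 fell in both comparisons with DSS_ImP. Arg1, the arginase of liver and of macrophages, had 16.8, 19.1 and 6.98 CPM in DSS_ImP, 4.12, 3.91 and 2.25 CPM in DSS, 0.710, 1.301 and 0.939 CPM in ImP, and 3.75, 4.33 and 3.72 CPM in Ctrl. It rose against DSS (2.06 ± 0.37, adjusted p = 0.00832) and against ImP (3.86 ± 0.40, adjusted p = 0.000365), and fell in ImP against Ctrl (-1.998 ± 0.38, adjusted p = 0.0239), where the Ctrl libraries carry the liver transcripts. Ass1, which remakes arginine from citrulline, rose against DSS (0.86 ± 0.22), and Srm, the spermidine synthase, rose against ImP (0.64 ± 0.16). Otc, which makes citrulline in enterocytes and liver, fell in DSS_ImP against DSS (-1.25 ± 0.26) and against ImP (-2.21 ± 0.27), and in DSS against Ctrl (-1.48 ± 0.26). Oat, which links ornithine to glutamate, fell by the test in DSS and in ImP against Ctrl (-0.53 ± 0.12 in each).

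Of 13 genes of tryptophan and serotonin metabolism, 1 fell in DSS_ImP against DSS, and 2 fell in each of the other pairs. Maoa, which breaks down serotonin, averaged 388 ± 77.5 CPM in DSS_ImP, 586 ± 17.7 CPM in DSS, 729 ± 38.2 CPM in ImP and 1167 ± 154 CPM in Ctrl, and fell in all 4 pairs (log2 changes -0.59 to -0.99). Tph1, which makes serotonin in enterochromaffin cells, fell in DSS (19.5 ± 3.91 CPM) and in ImP (16.6 ± 0.586 CPM), against 36.7 ± 9.26 CPM in Ctrl (-0.91 ± 0.19 and -1.14 ± 0.19). Maob, the relative of Maoa, fell in DSS_ImP against ImP (-1.11 ± 0.22). The serotonin carrier Slc6a4 was not called in any of these pairs. Enteroendocrine markers, Tph1 among them, summed to 224 to 278 CPM in DSS_ImP, 278 to 350.2 CPM in DSS, 296 to 437 CPM in ImP and 467 to 600.4 CPM in Ctrl, and their part in the fall of Tph1 was not tested.

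Of 10 genes of glutamine and glutamate metabolism, Gpt, an alanine aminotransferase, was the only one called, lower in DSS_ImP (32.7 ± 10.1 CPM) than in DSS (82.2 ± 14.5 CPM; -1.33 ± 0.24) and than in ImP (62.9 ± 13.9 CPM; -0.94 ± 0.24). Of 20 genes of amino acid sensing by mTORC1, 0 were called in any comparison by edgeR. At an unadjusted edgeR p under 0.05 there were 2 in DSS against Ctrl (15.3% of all genes) and 1 in DSS_ImP against DSS (24.1%). There were 4 in ImP against Ctrl (15.2%) and 0 in DSS_ImP against ImP (23%). DESeq2 called 1, in ImP against Ctrl (5.7% of all genes), and the sum of the 20 genes stayed between 570.5 and 640.4 CPM in all libraries. Of the 12 tested peptide and vesicular carriers and partners, Slc15a3, a lysosomal histidine and peptide carrier of myeloid cells, rose in DSS_ImP (30.6 ± 12.3 CPM) against DSS (7.71 ± 1.17 CPM; 1.99 ± 0.26) and against ImP (7.42 ± 1.77 CPM; 2.04 ± 0.27). Slc15a1, the peptide carrier of the small intestine, rose in ImP against Ctrl, at 61.2, 29.7 and 43.5 CPM in ImP and 3.76, 2.67 and 12.4 CPM in Ctrl (2.83 ± 0.52, adjusted p = 0.0211). Hoxb13 was at 126, 32.7 and 92.2 CPM in the same ImP libraries and 0.839, 0.509 and 17.0 CPM in the same Ctrl libraries. Its part in the rise of Slc15a1 was not tested. Slc18a1, which loads amines into vesicles of enterochromaffin cells, fell in DSS_ImP against DSS (-1.06 ± 0.21) and in ImP against Ctrl (-1.001 ± 0.21), at 3.03 ± 0.395 CPM in DSS_ImP, 6.31 ± 0.173 CPM in DSS, 3.40 ± 0.914 CPM in ImP and 6.81 ± 0.198 CPM in Ctrl.

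The interaction, the log2 change in DSS_ImP against ImP less that in DSS against Ctrl, asked whether the agents together differed from the sum of each. In edgeR 0 of the 56 tested members and 0 of 22279 genes (0%) passed, and 9 members had an unadjusted p under 0.05, as had 11.8% of all genes. The smallest was that of Slc6a8, which rose with each agent and not further with both (log2 interaction -1.11 ± 0.25, adjusted p = 0.0950). Slc43a2 (0.99 ± 0.25, adjusted p = 0.133), Slc7a2 (1.99 ± 0.51, 0.138) and Slc7a11 (1.66 ± 0.51, 0.208) had positive values. DESeq2 called these 4, and 3.17% of all genes, Slc6a8 at -1.13 (adjusted p = 0.00139), Slc43a2 at 0.97 (0.0123), Slc7a2 at 1.97 (0.0103) and Slc7a11 at 1.64 (0.0364). Without DSS_ImP 4, edgeR called 2.06% of all genes and, of the members, Slc43a3 (1.28, adjusted p = 0.0319), Slc7a2 (2.33, 0.0166) and Slc43a2 (1.17, 0.0191).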

How the data were processed

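The table of all 12 libraries holds estimated counts per gene, which the authors deposited as whole numbers, and FPKM, which they deposited beside them, per the file headers. Per the labels' protocols, oligo(dT) selected the messenger RNA and dUTP marked the strand. The tools named are HISAT2 2.0.4, StringTie 1.3.4d and cutadapt 1.9, per the submitters' processing notes. Counts of 4 were in excess (12215 values, against 7060 of 3 and 4182 of 5), so a read pair was counted as about 4, and 3 read pairs over a group (12 counts) as the limit of a count of 0, for counting error only. The estimated counts were tested as deposited in R 4.3.3 with edgeR 4.0.16 (quasi-likelihood F test, filterByExpr by group, TMM, 1 coefficient per group, two-sided, Benjamini-Hochberg over all genes tested). The common biological coefficient of variation was 0.312, and replicates correlated at a Spearman rho of 0.975 to 0.983. Each SE is the size of the log2 change divided by the root of F. Summed marker levels use CPM on TMM-scaled library sizes. The tests were tried on simulated counts.

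The members, roles and gene lists were chosen with earlier results of these data known. All called members are named, with the highest member of each role and up to 4 called genes of a list with the smallest p; other named members were chosen after their values were seen. Batches were set by liver transcripts of at least 50 CPM or pancreatic transcripts of at least 5 CPM, from lists trimmed of Tat, Cyp2e1, Ttr and Cela1, which colon itself held, after the values were seen. Alternatives were DESeq2 1.42.0, limma 3.58.1 on log2(FPKM + 1) and log2(FPKM + 0.1) for genes with 1 FPKM in 3 libraries, no filter, a filter of 1 CPM in 6 libraries, each library left out, batch as a term, a fit to only the groups compared, a replicate block, and counts divided by 4. Gene positions of the table did not match GRCm38 and are not given; promoters are RefSeq's.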

Additional observations from a re-analysis of the deposited data

How the results depend on the processing

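The number of carriers called depended on the model, as did that of all genes, and no call of the 10 called carriers turned its direction under the settings run. Against the 1 call in DSS against Ctrl, DESeq2 gave 2, a filter of 1 CPM in 6 libraries 2, only the groups compared 2, batch as a term 0, within batch A 0, and leaving out 1 library 0 to 2. Of all genes 623 were called in DSS against Ctrl by the main fit, 1457 with DESeq2, 780 with that filter, 877 with only the groups compared and 116 with batch as a term. Leaving out 1 library gave 268 to 779. Against the 7 calls in DSS_ImP against DSS, DESeq2 gave 11, no filter 3, only the groups compared 4, and leaving out 1 library between 1 (without DSS_ImP 3 or DSS 5) and 9 (without DSS_ImP 4). All genes called there were 1789 in the main fit, 3188 with DESeq2, 1253 with no filter and 721 with only the groups compared. They were 491 without DSS_ImP 3, 522 without DSS 5 and 2616 without DSS_ImP 4. Against the 1 call in ImP against Ctrl, DESeq2 gave 4, the filter of 1 CPM 2, only the groups compared 4, counts divided by 4 gave 2, batch as a term 0, and leaving out 1 library 0 to 2. All genes called there were 443 in the main fit, 1269 with DESeq2, 585 with the filter and 516 with only the groups compared. They were 579 with counts divided by 4, 4 with batch as a term, and 49 to 527 with 1 library left out. Against the 7 calls in DSS_ImP against ImP, DESeq2 gave 11, only the groups compared 3, and leaving out 1 library between 2 (without DSS_ImP 3) and 8 (without DSS_ImP 4). All genes called there were 2079 in the main fit, 3152 with DESeq2 and 1153 with only the groups compared. They were 997 without DSS_ImP 3 and 2490 without DSS_ImP 4. For the interaction DESeq2 gave 4 and leaving out 1 library 0 to 3, against 0. Of all genes DESeq2 called 706 there and leaving out 1 library gave 0 to 476, against 0. The cause was not tested. Of 1010 values of those 10 carriers under the settings, 896 kept their side of the threshold, 97 lost a call and 17 gained one. These values cover every comparison, so many that kept their side were never calls, while the 97 losses all fall on the calls. Per call, the 12 fits with 1 library left out lost from 0 (Slc7a11 and Slc43a2) to 11 (Slc7a7). Slc7a2 did not pass the FPKM filter and has no limma value. In ImP against Ctrl no library pair shares a batch, and fits that leave 1 library in a group assume that it varies like the others. Carriers under 0.1 FPKM rest on few counts.

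Replicate numbers did not pair the samples: libraries of different groups with the same number correlated at r of -0.212 to 0.155 in their deviations from the group mean, and those with different numbers at -0.198 to 0.276. With the replicate number as a block, 0, 0, 0 and 1 carriers were called in DSS against Ctrl, DSS_ImP against DSS, ImP against Ctrl and DSS_ImP against ImP, the 1 being Slc7a11, and 0 in the interaction. Of all genes 10, 351, 0 and 688 were called in the same order, and 2 in the interaction.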
